A study of Rattus norvegicus with 32 samples.

Results

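The nuclear genes of the mitochondrial respiratory chain and of ATP synthase were followed in CA3 hippocampal neurons of rats after traumatic brain injury (TBI). Genes were taken from the array annotation, updated to current rat symbols through the gene number, where the symbol was that of a subunit of NADH dehydrogenase (complex I), succinate dehydrogenase (complex II), the cytochrome bc1 complex (complex III), cytochrome c oxidase (complex IV) or ATP synthase (complex V), with the NADH dehydrogenase assembly factors left out. This gave 64 genes of 12573 named on the arrays. Of these, 63 had 67 probes among the expression probes proper, with 26 genes in complex I, 3 in complex II, 8 in complex III, 13 in complex IV and 13 in complex V. The remaining gene, Sdha, was carried only by probes of a separate type and is described on its own. After the filter on dim probes 58 genes were left, 25 of complex I, 3 of complex II, 8 of complex III, 10 of complex IV and 12 of complex V. Ndufv3, Cox6b2, Cox8b, Cox8c and Atp5pb did not pass, and 39 genes were above background on all 32 arrays.

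The respiratory chain lies in the inner mitochondrial membrane, where complexes I to IV pass electrons from NADH and succinate to oxygen and complexes I, III and IV pump protons, and complex V uses the proton gradient to make ATP. Neurons depend on this pathway for most of their ATP. Most of the subunits are encoded in the nucleus, and the few subunits encoded in mitochondrial DNA were not followed.

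Neurons that Fluoro-Jade, a stain of degenerating neurons, had not marked were taken by laser capture from adult male Sprague-Dawley rats. The 4 treatments were sham injury (Sham), fluid percussion TBI with saline (TBI), TBI with metyrapone at 100 mg/kg (TBI+MT) and TBI with carbenoxolone at 30 mg/kg (TBI+CB), each collected at 4 h and at 24 h. Both drugs lower glucocorticoid action. The paper names the enzyme that regenerates active steroid as a common target of both, and metyrapone also blocks steroid synthesis. Both were given before injury, at an interval that the labels and the methods state differently. Sham rats at 4 h were labelled untreated, whereas the methods gave them saline. Each of the 8 groups had 2 pooled samples of neurons, with 3 rats a pool in the methods. Each pool was hybridized to duplicate arrays, so that n = 2 throughout. A p-value sets a group difference against the spread between pools. That spread was estimated once per probe over all 8 groups and moderated by the spread of all probes. A standard error at 4 h therefore also carries the spread of the 24 h pools.

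Signal was uneven between samples. The share of probes above background was between 27.4% and 64.5% of each sample's probes, lowest in TBI+MT replicate 1 and TBI+CB replicate 2 at 24 h. Over all probes, duplicate arrays of a sample correlated at 0.9002 to 0.997 and the 2 pools of a group at 0.733 to 0.943, with the lowest value of both kinds in TBI+MT at 24 h. Both 4 h sham samples and TBI replicate 1 were on slides of a first run, all other 4 h samples and the 24 h Sham and TBI samples on a second, and the 24 h drug samples on slides of yet another, the run being read from the slide numbers. Drug and run therefore cannot be told apart at 24 h. Of 5 pyramidal neuron markers with a probe, Snap25 was near background on all arrays of all groups, and the other 4 passed the filter. Grin2a was near background on all TBI+MT arrays at 24 h. Astrocyte markers were also present, with a summed normalized intensity of 97.0 to 505.0. Oligodendrocyte markers summed to 79.4 to 256, interneuron markers to 66.6 to 137, and microglia markers to 26.6 to 170. Endothelial and pericyte markers summed to 24.3 to 84.6. The source of these signals was not tested. In such pooled material, fewer cells of a type and less RNA per cell cannot be told apart.

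Promoters are shown for 1 gene of each complex, that with the smallest p in TBI+MT against TBI at 4 h among the genes with a RefSeq entry and no pseudogene name. Each window holds 250 bases before and 50 after the gene's start in GRCr8, printed from 5' to 3' on the gene's strand, with capitals where a searched motif matched.
Ndufa2, complex I, chr18:28631835-28632134, minus strand: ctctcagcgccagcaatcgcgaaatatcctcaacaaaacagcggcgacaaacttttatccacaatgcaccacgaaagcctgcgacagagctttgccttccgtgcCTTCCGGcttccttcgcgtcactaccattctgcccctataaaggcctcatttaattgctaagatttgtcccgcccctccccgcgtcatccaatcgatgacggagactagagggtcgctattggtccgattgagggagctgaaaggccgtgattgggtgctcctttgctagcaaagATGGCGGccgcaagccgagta
Sdhc, complex II, chr13:86097976-86098275, minus strand: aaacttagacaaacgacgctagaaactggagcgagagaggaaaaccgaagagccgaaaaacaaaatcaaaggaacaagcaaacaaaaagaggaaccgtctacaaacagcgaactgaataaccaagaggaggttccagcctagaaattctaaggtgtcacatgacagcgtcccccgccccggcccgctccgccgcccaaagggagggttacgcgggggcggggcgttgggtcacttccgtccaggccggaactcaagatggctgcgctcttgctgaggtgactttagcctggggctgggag
Uqcrq, complex III, chr10:38089929-38090228, minus strand: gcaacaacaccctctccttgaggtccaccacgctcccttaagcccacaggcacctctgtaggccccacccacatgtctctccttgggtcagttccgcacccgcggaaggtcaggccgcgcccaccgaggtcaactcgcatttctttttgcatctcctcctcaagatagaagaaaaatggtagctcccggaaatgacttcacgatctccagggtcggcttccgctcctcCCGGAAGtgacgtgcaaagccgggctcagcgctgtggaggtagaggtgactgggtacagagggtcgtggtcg
Cox8a, complex IV, chr1:213833574-213833873, minus strand: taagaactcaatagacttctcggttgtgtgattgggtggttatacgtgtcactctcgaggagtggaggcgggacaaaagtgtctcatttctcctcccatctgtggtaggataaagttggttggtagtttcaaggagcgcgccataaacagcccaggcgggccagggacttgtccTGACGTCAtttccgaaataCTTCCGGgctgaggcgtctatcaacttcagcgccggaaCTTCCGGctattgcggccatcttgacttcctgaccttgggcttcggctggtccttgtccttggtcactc
Atp5mf, complex V, chr12:14535185-14535484, plus strand: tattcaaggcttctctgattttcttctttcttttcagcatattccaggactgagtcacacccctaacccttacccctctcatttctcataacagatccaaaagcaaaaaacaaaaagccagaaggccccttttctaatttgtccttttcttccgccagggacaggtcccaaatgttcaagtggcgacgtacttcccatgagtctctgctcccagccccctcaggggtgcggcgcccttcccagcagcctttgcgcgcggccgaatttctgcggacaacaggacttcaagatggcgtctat

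Motifs of factors known to act on respiratory genes were searched on both strands, and 55 of the 63 genes had a window. The GABP motif CCGGAAG, bound by an ETS factor, was in 16 of them (29.1%) and in 9.22% of all 27457 promoters of the same length. The YY1 motif ATGGCGG was in 13 (23.6%) against 5.22%, and the NRF1 motif in 10 (18.2%) against 4.71%. NRF1 letters were found in 5 genes of complex I, 1 of complex III and 4 of complex V. The ERR motif TNAAGGTCA was in 3 windows (5.45% against 1.15%), and the cyclic AMP motif TGACGTCA also in 3 (5.45% against 1.91%). The palindromic motif of the glucocorticoid receptor was in none of the 55 windows and in 0.422% of all promoters. No motif contains another. Among the printed windows Ndufa2 held a GABP and a YY1 match, Uqcrq 1 GABP match, and Cox8a 2 GABP matches and the cyclic AMP motif, whereas Sdhc and Atp5mf held none. A match is a description of letters only.

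All levels below are normalized intensities, the raw spot intensity divided by the array median, as means of the duplicate arrays on the log2 scale turned back. Levels of different genes come from different probes and are not compared with each other. The median over the 58 genes was 34.6 and 41.4 in the Sham samples at 4 h, 52.7 and 73.3 in TBI, 17.2 and 39.3 in TBI+MT, and 32.9 and 36.4 in TBI+CB. Both TBI samples were thus the highest of the 8 samples at 4 h, and TBI+MT replicate 1 the lowest. At 24 h it was 33.5 and 14.2 in Sham, 18.1 and 23.7 in TBI, 6.91 and 28.9 in TBI+MT, and 65.0 and 16.9 in TBI+CB. Pools of 1 group lay further apart at 24 h than at 4 h in Sham and in both drug groups, and the groups overlapped. Over all kept probes the median was also lowest in TBI+MT replicate 1 at 24 h, at 2.41, and highest in TBI replicate 2 at 4 h, at 6.50.

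**Figure D1:**
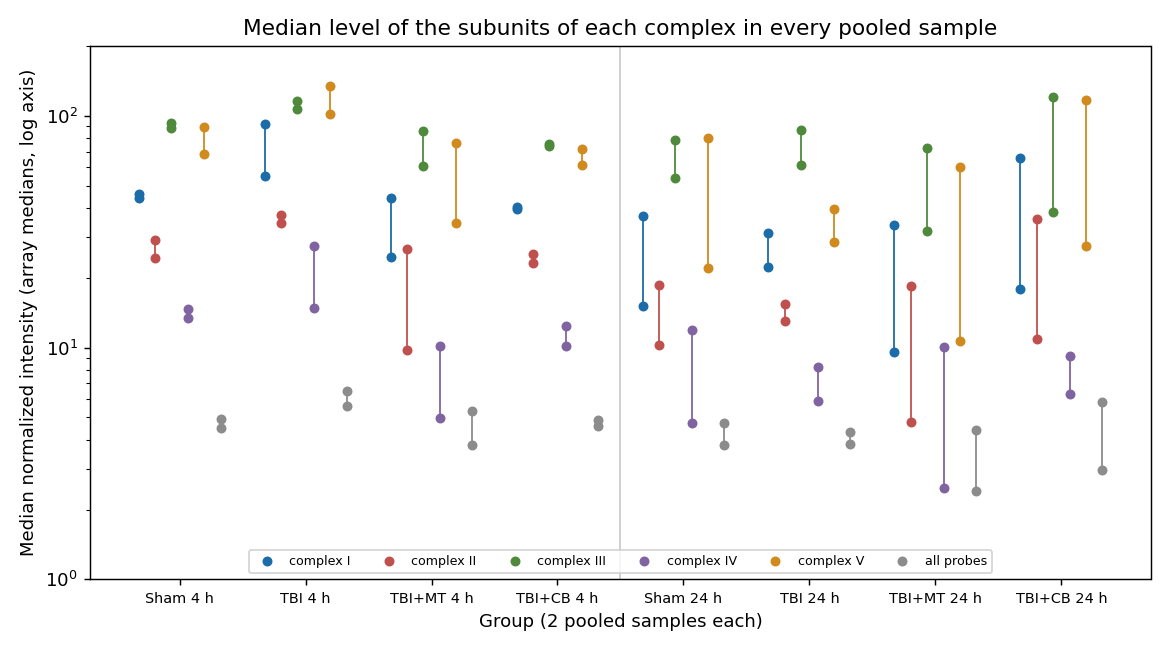
Median normalized intensity (log axis) of the kept subunits of complexes I to V and of all kept probes, in both pooled samples (points, joined by a line) of the 8 groups on the horizontal axis. Both TBI samples at 4 h lay above both Sham samples in every complex and over all kept probes. The pools of a group spread widely at 24 h. Heights of different complexes rest on different probes.

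In each complex the highest samples at 4 h were those of TBI. Over all kept probes they were also the highest, at 5.60 and 6.50, against 3.79 to 5.35 in the other groups. With the log2 median of all probes subtracted, TBI overlapped Sham in complexes II to V. In complex I it was then at 3.297 and 3.819 against 3.296 and 3.225 in Sham. Median levels of complex I were 44.3 and 45.8 in Sham, 55.0 and 91.7 in TBI, 24.5 and 44.1 in TBI+MT and 39.4 and 40.5 in TBI+CB. Those of complex V were 68.4 and 89.1 in Sham, 102 and 134 in TBI, 34.5 and 76.3 in TBI+MT and 61.4 and 71.8 in TBI+CB. In both complexes all drug samples lay below both TBI samples. Complex IV showed 13.4 and 14.7 in Sham, 14.8 and 27.3 in TBI, 4.99 and 10.1 in TBI+MT and 12.4 and 10.2 in TBI+CB, and complex III 88.4 and 93.0, 107 and 116, 60.8 and 85.8, and 75.3 and 73.9 in the same order of groups. Complex II, with 3 genes, had 24.4 and 29.1 in Sham, 37.3 and 34.5 in TBI, 9.79 and 26.7 in TBI+MT and 23.1 and 25.3 in TBI+CB. TBI+MT replicate 1 was the lowest sample at 4 h in each of the 5 complexes and over all kept probes.

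At 24 h no complex separated the groups. Complex I had medians of 37.0 and 15.1 in Sham, 22.2 and 31.1 in TBI, 9.54 and 33.9 in TBI+MT and 65.7 and 17.9 in TBI+CB. Complex V had 79.9 and 22.1 in Sham, 28.6 and 39.6 in TBI, 10.6 and 59.8 in TBI+MT and 117 and 27.5 in TBI+CB. TBI samples lay between the Sham samples in both, and each drug group held 1 sample above and 1 below both TBI samples. In complex IV the range over the 8 samples was 2.47 to 11.9, in complex II 4.77 to 35.8 and in complex III 31.9 to 121.

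**Figure D2:**
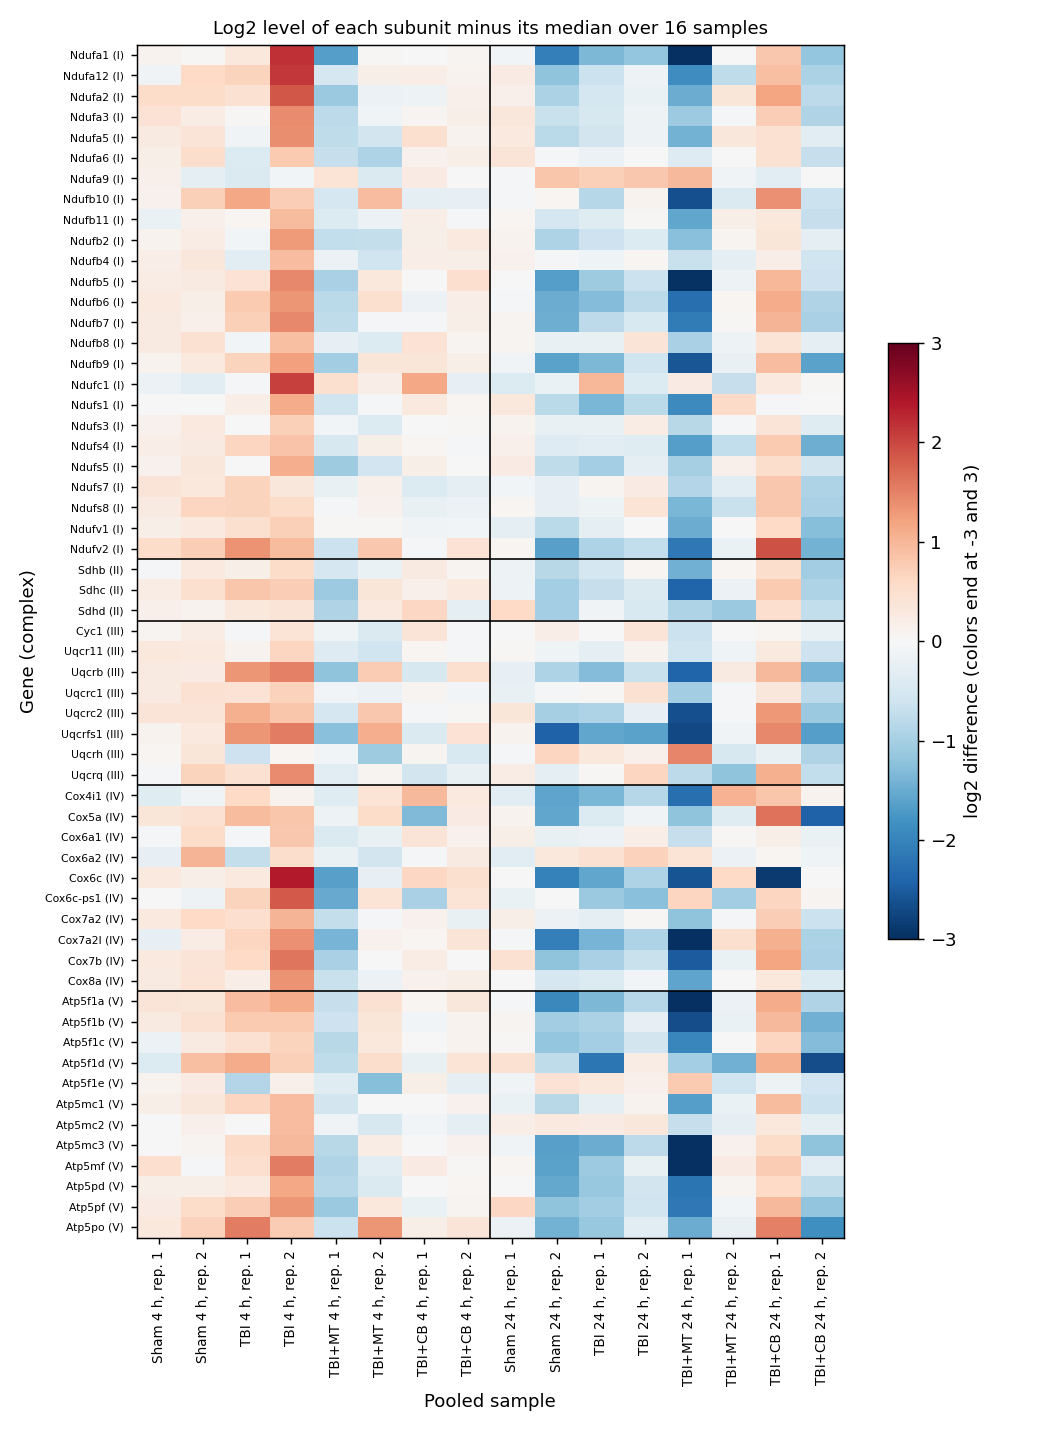
Log2 normalized intensity of each of 58 subunits (rows, by complex) in each of the 16 pooled samples (columns), minus the gene's median over the samples; colors end at -3 and 3. Most rows were red in TBI replicate 2 at 4 h and blue in TBI+MT replicate 1 at 24 h, whereas Uqcrh, Atp5f1e and Ndufa9 were red there.

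The first comparison asked how injury changed the neurons at 4 h. No subunit passed the threshold (limma, adjusted p under 0.05), as did 0% of all 17613 probes tested, and 0 subunits had an unadjusted p under 0.05, against 3.34% of all probes. The median log2 difference, TBI minus Sham, was 0.51 over the 58 subunits and 0.33 over all probes. Of the subunits 53 were higher and 5 lower, and 69.1% of all probes were higher. More than 2-fold higher were 8 subunits (15.9% of all probes were). For 31 subunits both TBI samples were above both Sham samples, which is 53.4% of them, against 36.4% of all probes. Cox6c-ps1, which passed the filter only through its level in TBI at 4 h, is among these 31 and those 8. It also enters the complex IV median of each comparison with that group. By complex the medians were 0.50 in complex I, 0.25 in II, 0.38 in III, 0.54 in IV and 0.59 in V, and that of complex II was -0.09 under quantile normalization. Astrocyte markers, at a summed 144 and 256 in Sham, were at 226 and 505 in TBI, with 4 of 6 higher. They were highest in the replicate that was also highest for most subunits. Interneuron markers had a median of 0.42 with 4 of 6 higher, and oligodendrocyte markers of 0.19 with 4 of 5 higher. Microglia markers had a median of -0.32 with 6 of 8 lower, and endothelial and pericyte markers of -0.07 with 5 of 7 lower. The part of these markers in the result was not tested.

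The TBI samples were not alike. Set against the mean of both Sham samples, the subunits had a median of 0.22 in TBI replicate 1, which shared a slide run with Sham, and of 0.65 in TBI replicate 2, which did not. In TBI replicate 1, 40 subunits were higher and 18 lower, and in replicate 2, 54 were higher and 4 lower. Of all probes, 10910 of 17611 were higher in replicate 1 and 12816 of 17595 in replicate 2. The gap between the subunit medians of the replicates was widest in complex I, at 0.19 and 0.98. It was narrower in complex V, at 0.40 and 0.69. Within complex I, the 6 measured core subunits, which carry the electron path, were at 0.23 in replicate 1 and 0.39 in replicate 2, and the 19 accessory subunits, which surround the core, at 0.08 and 1.07.

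Single subunits show this split. Ndufa1, an accessory subunit of the membrane arm, was at 42.0 and 39.7 in Sham and 48.4 and 179 in TBI, so that 1 TBI sample stood apart; its log2 difference was 1.19 with a standard error of 1.07 (limma, adjusted p = 0.936). Ndufa12, an accessory subunit, was at 32.2 and 52.4 in Sham and 54.5 and 150 in TBI, and Cox6c, a small subunit of complex IV, at 18.0 and 16.6 against 18.0 and 76.8. Ndufc1, an accessory subunit, was at 1.00 and 0.899 in Sham and 1.11 and 4.69 in TBI. In other genes both TBI samples lay at similar levels. Atp5f1a, the alpha subunit of the ATP synthase head, was at 150 and 148 in Sham and 216 and 247 in TBI, a log2 difference of 0.63 with a standard error of 0.95. Uqcrfs1, the Rieske iron-sulfur protein of complex III, was at 8.42 and 9.56 in Sham and 19.4 and 22.6 in TBI, a log2 difference of 1.22 with a standard error of 1.17. In both genes the groups did not overlap, yet neither passed the test (adjusted p = 0.936 in limma for both). Uqcrb, a complex III subunit close to the quinone site, was at 1.79 and 1.77 against 3.72 and 4.27.

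The 5 subunits with a mean below Sham were Atp5f1e, Uqcrh, Cox6a2, Ndufa6 and Ndufa9. Atp5f1e, the epsilon subunit of ATP synthase, was at 367 and 407 in Sham and 186 and 381 in TBI, a log2 difference of -0.54 with a standard error of 0.58. Uqcrh, the hinge protein of complex III, was at 352 and 432 in Sham and 217 and 351 in TBI. In both genes TBI replicate 1 was the low sample and replicate 2 lay at or near the Sham values. Cox6a2, the muscle-type isoform of a complex IV subunit, was at 2.18 and 5.23 in Sham and 1.58 and 3.75 in TBI, and the groups overlapped.

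The next comparison set TBI+MT against TBI at 4 h, with the same TBI samples as in the comparison with Sham. The subunits were lower with metyrapone in the measured means, but none passed the test (0% of 17619 probes did), with a lowest adjusted p of 0.736 in limma. Of the 58 subunits 57 were lower, as were 12405 of 17619 probes. The median log2 difference of the subunits was -1.005 against -0.40 over all probes. For 29 subunits the mean was more than 2-fold lower, against 25.1% of all probes. Both TBI+MT samples were below both TBI samples for 49 subunits (84.5%), against 33.6% of all probes. With an unadjusted p under 0.05 there were 4 subunits, against 4.73% of all probes. Among them, Cox6c-ps1 passed the filter only through TBI at 4 h, and the other 3 were in complex I. Cox6c-ps1 is also among the 29 and the 49. Complex medians were -0.98 in I, -0.71 in II, -0.83 in III, -1.16 in IV and -1.04 in V. Every gene was lower in complexes II, III, IV and V, and 24 of 25 were lower in complex I. The median of complex III was -0.25 under quantile normalization. Astrocyte markers summed to 100 and 179 in TBI+MT, below the 226 and 505 in TBI, with 6 of 6 lower at a median of -0.97. Interneuron markers had a median of -1.26 with 5 of 6 lower, microglia markers of -0.58 with 7 of 8 lower, oligodendrocyte markers of -0.44 with 4 of 5 lower and endothelial and pericyte markers of -0.21 with 4 of 7 lower. The part of these markers in the result was not tested.

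The 4 subunits with an unadjusted p under 0.05 included 3 accessory subunits of complex I. Ndufa2, an accessory subunit of complex I, was at 12.2 and 32.6 in TBI and at 4.14 and 7.86 in TBI+MT, a log2 difference of -1.80 with a standard error of 0.80 (limma, adjusted p = 0.736). Ndufs5, an accessory subunit, was at 152 and 324 in TBI and at 72.5 and 102 in TBI+MT, a difference of -1.37 with a standard error of 0.62. Ndufb2, also an accessory subunit, was at 8.11 and 20.6 in TBI and at 5.12 and 5.20 in TBI+MT, a difference of -1.33 with a standard error of 0.60. In all 3 genes both TBI+MT samples were below both TBI samples, and TBI replicate 2 was the high sample. The fourth with an unadjusted p under 0.05 was Cox6c-ps1, a pseudogene of Cox6c that the annotation lists and whose probe may share sequence with Cox6c. It was at 0.949 and 2.11 in TBI, and at 0.209 and 0.795 in TBI+MT. Only in TBI at 4 h was it above background on all 4 arrays, so it passed the filter through that group alone. The filter thus selected it for a high level in TBI at 4 h. No conclusion was therefore drawn from the differences of Cox6c-ps1 against that group. In Sham at 4 h it was near background on all arrays.

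In complex III, Uqcrq was at 31.1 and 60.7 in TBI and 18.2 and 24.0 in TBI+MT, a log2 difference of -1.05 with a standard error of 0.63. Uqcr11, a small accessory subunit, was at 247 and 357 against 174 and 152, and Uqcrb at 3.72 and 4.27 against 0.642 and 2.54. Uqcrfs1 was at 19.4 and 22.6 in TBI and 3.24 and 16.6 in TBI+MT, a difference of -1.51, and Uqcrh at 217 and 351 against 316 and 161, a difference of -0.29. The groups overlapped for Uqcrh and not for Uqcrfs1. Uqcrc1, a core protein, was at 219 and 259 in TBI and 153 and 142 in TBI+MT, and Cyc1, cytochrome c1, at 158 and 217 against 150 and 121. The groups did not overlap in either gene. Uqcrc2, the other core protein, was at 72.5 and 62.1 against 24.6 and 60.8, so that 1 TBI+MT sample was close to TBI.

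In complex IV, Cox8a, a small subunit of the ubiquitous isoform, was at 28.2 and 62.3 in TBI and 15.6 and 21.7 in TBI+MT, a log2 difference of -1.19 with a standard error of 0.60. A further Cox8a probe gave -0.68, in the same direction. Cox7a2, a small subunit, was at 12.1 and 17.5 against 5.24 and 8.32, and Cox6a1, the common isoform, at 369 and 672 against 284 and 328. Cox7a2l, a factor that joins complex III and IV into supercomplexes, was at 54.1 and 89.4 in TBI and 13.0 and 37.5 in TBI+MT, a difference of -1.66 with a standard error of 1.22. Of the 58 subunits Cox6c had the largest measured difference, -2.28 with a standard error of 1.18, at 18.0 and 76.8 in TBI against 4.74 and 12.3. Cox4i1, the ubiquitous isoform of a regulatory subunit, was close to the background at 1.72 and 1.23 against 0.884 and 1.52. Cox5a, another complex IV subunit, was at 3.66 and 3.43 against 1.71 and 2.78. Cox6a2 was at 1.58 and 3.75 against 2.28 and 1.76, and here the groups overlapped.

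In complex V, the alpha, beta and gamma subunits of the head were lower in both TBI+MT samples than in both TBI samples. Atp5f1a was at 216 and 247 in TBI and 70.8 and 158 in TBI+MT, a log2 difference of -1.13 with a standard error of 0.95. Atp5f1b, the catalytic beta subunit, was at 212 and 212 against 80.3 and 159, and Atp5f1c, the gamma subunit that turns in the head, at 163 and 190 against 67.6 and 149. In each, TBI+MT replicate 1 was the lowest sample. The groups overlapped for Atp5f1e, the epsilon subunit of the head, at 186 and 381 in TBI and 265 and 141 in TBI+MT. Atp5mc1, Atp5mc2 and Atp5mc3 encode the same c ring protein. Their log2 differences were -1.05, -0.76 and -1.08. Atp5mc3 was at 262 and 345 in TBI and 97.8 and 206 in TBI+MT, and Atp5mc1 at 32.5 and 39.0 against 14.0 and 21.0. Atp5pd, a stalk subunit, was at 206 and 374 against 93.3 and 125, and Atp5mf, a membrane subunit, at 2.73 and 5.59 against 1.03 and 1.52.

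Within complex I, the median log2 difference in TBI+MT was -0.58 over the 6 core subunits and -1.22 over the 19 accessory subunits, a split made after the values were seen and not tested. Ndufs7, a core subunit that passes electrons to the quinone, was at 57.2 and 45.2 in TBI and 30.9 and 39.8 in TBI+MT, with a further probe at -0.15 where this one gave -0.53. Ndufs8, a core iron-sulfur subunit, was at 99.1 and 91.7 against 59.9 and 68.1, and Ndufs3, a core subunit, at 169 and 280 against 162 and 129. Ndufv1, which binds NADH, was at 59.5 and 70.1 against 43.7 and 44.1, Ndufv2, a core iron-sulfur subunit, at 23.4 and 17.8 against 5.87 and 16.1, and Ndufs1, the largest core subunit, at 79.8 and 150 against 45.9 and 67.8. In each of the 6 core genes both drug samples were below both TBI samples. Ndufa9, an accessory subunit, was the only subunit with a higher mean in TBI+MT, at 2.72 and 3.45 in TBI and 4.88 and 2.71 in TBI+MT.

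Complex II, which oxidizes succinate and is the only complex with no mitochondrially encoded subunit, showed the smallest median. Sdhb, its iron-sulfur subunit, was at 167 and 218 in TBI, 106 and 129 in TBI+MT and 179 and 158 in TBI+CB, and TBI+CB overlapped TBI. Sdhc, a membrane anchor, was at 37.3 and 34.5 in TBI, 9.79 and 26.7 in TBI+MT and 23.1 and 25.3 in TBI+CB. Sdhd, the other anchor, was at 11.3 and 11.9 in TBI, 4.82 and 11.1 in TBI+MT and 13.9 and 7.41 in TBI+CB. Sdha, the catalytic flavoprotein, had 4 different probes of the separate type, each spotted 4 times an array, and was not tested. Its probe with the highest signal was at 9.07 and 10.6 in Sham, 15.9 and 11.2 in TBI, 4.42 and 12.5 in TBI+MT and 6.42 and 9.41 in TBI+CB at 4 h, and the TBI+MT samples overlapped TBI. At 24 h that probe was at 9.02 and 3.87, 3.35 and 6.51, 1.71 and 5.33, and 18.4 and 3.81 in the same groups. A second probe had a log2 difference of -0.42 in TBI+MT against TBI at 4 h, where this one had -0.85, and the remaining ones were near background on most arrays.

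TBI+CB was set against the same TBI samples at 4 h. Of the 58 subunits 53 were lower in the mean, as were 11146 of 17619 probes. The median log2 difference of the subunits was -0.70 against -0.28 over all probes. None passed the test (limma, lowest adjusted p = 0.957), as for 0% of 17619 probes, and 0 had an unadjusted p under 0.05, against 3.44% of all probes. For 12 the mean was more than 2-fold lower, against 15.9% of all probes. Both TBI+CB samples were below both TBI samples for 36 subunits (62.1%), against 34.6% of all probes. Cox6c-ps1, which passed the filter only through TBI at 4 h, is among these 36 and those 12. Complex medians were -0.69 in I, -0.19 in II, -0.76 in III, -0.79 in IV and -0.75 in V. The 6 core subunits of complex I had a median of -0.74 and the 19 accessory ones of -0.60. Interneuron markers had a median of -0.85 with 5 of 6 lower, and astrocyte markers of -0.52 with 4 of 6 lower, at a summed 221 and 208 in TBI+CB against 226 and 505 in TBI. Microglia markers had a median of -0.20 with 5 of 8 lower, endothelial and pericyte markers of -0.10 with 4 of 7 lower and oligodendrocyte markers of -0.01 with 3 of 5 lower. The part of these markers in the result was not tested. The median of complex II was 0.10 under quantile normalization.

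Uqcrq had the smallest p, at 31.1 and 60.7 in TBI and 15.5 and 19.5 in TBI+CB, a log2 difference of -1.32 with a standard error of 0.63. Ndufa12 was at 54.5 and 150 in TBI and 40.0 and 37.2 in TBI+CB, and Ndufs7 at 57.2 and 45.2 against 26.9 and 29.2, a difference of -0.86 with a standard error of 0.55. A further Ndufs7 probe gave 0.32, in the opposite direction. Uqcrfs1 was at 19.4 and 22.6 against 5.74 and 10.5, Ndufb10, an accessory subunit, at 9.94 and 7.39 against 3.68 and 3.72, and Atp5pf, a stalk subunit, at 63.5 and 94.9 against 32.7 and 40.1. The groups did not overlap in any of these. Atp5f1a was at 119 and 145 in TBI+CB, below both TBI samples, and Atp5f1b at 116 and 133. The c ring genes had log2 differences of -0.73 for Atp5mc1, -0.64 for Atp5mc2 and -0.71 for Atp5mc3. Cox8a was at 26.9 and 27.7, below both TBI samples. Cox6c-ps1, which passed the filter only through TBI at 4 h, was near background on all TBI+CB arrays. No conclusion was drawn from its difference against TBI. Among the few higher subunits, Cox4i1 was at 2.22 and 1.40 in TBI+CB, and the groups overlapped.

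**Figure D3:**
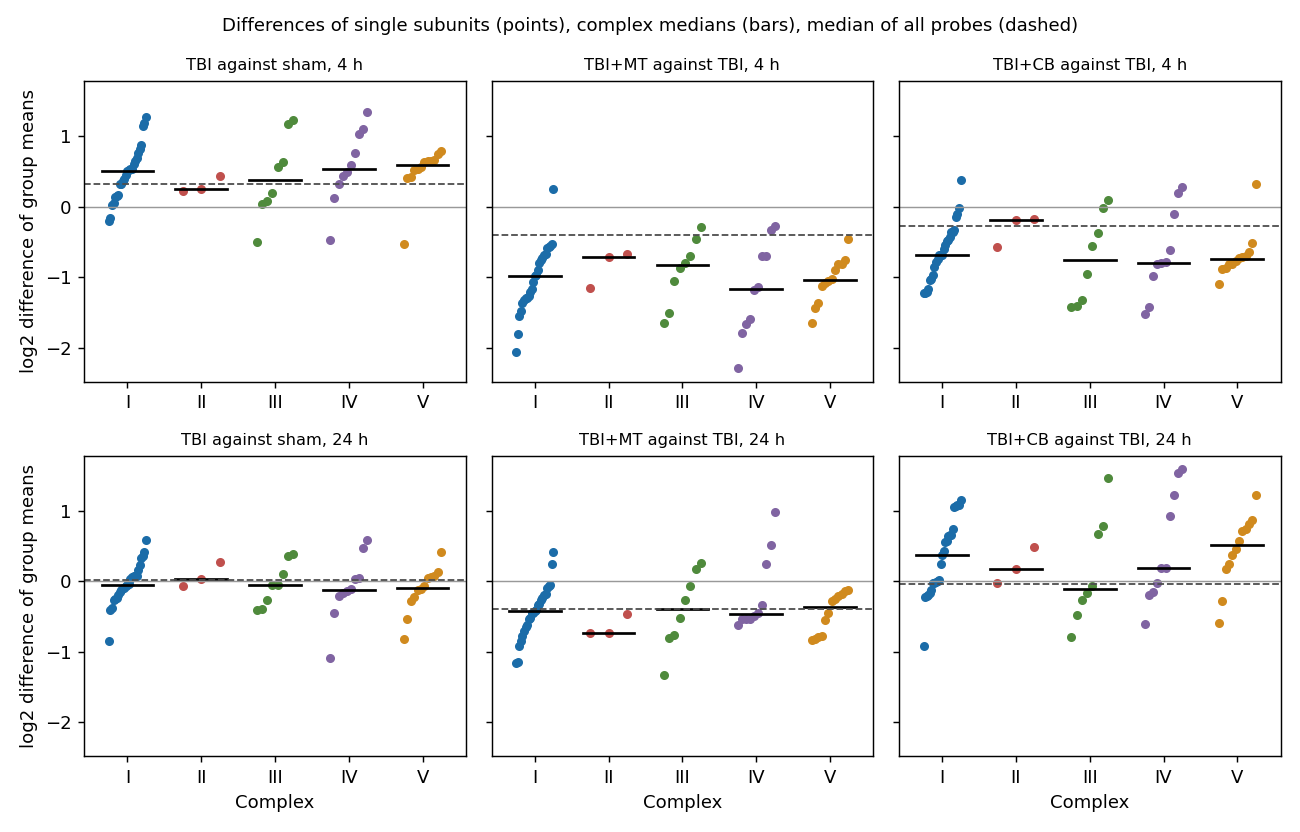
Log2 difference of the group means for each subunit (points), by complex on the horizontal axis, for 3 comparisons at 4 h (top) and 24 h (bottom), with the complex median (bar) and the median of all probes (dashed line). At 4 h the medians of complexes I to V in TBI+MT lay between -0.71 and -1.16, below the -0.40 of all probes, and at 24 h the TBI and Sham difference of the 58 subunits was near 0.

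Between the drugs at 4 h, 50 of 58 subunits were lower in TBI+MT than in TBI+CB, as were 11516 of 17619 probes. The median log2 difference of the subunits was -0.38 against -0.20 over all probes. None passed the test (0% of all probes did), 0 had an unadjusted p under 0.05 (3.11% of all probes), and Cox6c, at 4.74 and 12.3 against 22.5 and 20.7, was the only one more than 2-fold lower (5.32% of all probes). For 23 subunits both TBI+MT samples were below both TBI+CB samples (39.7%, against 19.2% of all probes). Ndufa6, an accessory subunit, at 125 and 107 against 220 and 229, showed the smallest p, with a difference of -0.96 and a standard error of 0.54 (limma, adjusted p = 0.999). The 6 core genes of complex I had a median of 0.01 and the 19 accessory ones of -0.57. Leaving out TBI+MT replicate 1 took the subunit median from -0.38 to -0.09.

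At 24 h, TBI and Sham differed by a median log2 of -0.06 over the subunits and 0.01 over all probes. Of the subunits 25 were higher and 33 lower, and 51.0% of all probes were higher. None passed the test (0% of all probes did), 0 had an unadjusted p under 0.05 (1.84% of all probes) and only Cox6c-ps1, near background in both groups, was more than 2-fold lower in the fitted mean (6.71% of all probes). For 2 subunits both TBI samples were below both Sham samples (3.45%, against 11.4% of all probes). Ndufs1 had the smallest p in complex I, at 86.6 and 39.9 in Sham and 26.7 and 39.7 in TBI, a log2 difference of -0.85 with a standard error of 0.73 (limma, adjusted p = 1.00). Atp5f1a was at 109 and 30.0 in Sham and 44.8 and 63.2 in TBI, and Cyc1 at 162 and 189 against 164 and 215. Sham replicate 2 was low for most subunits, and without it the median was -0.58, whereas without Sham replicate 1 it was 0.40.

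Microglia markers, at a summed 36.2 and 66.7 in Sham at 24 h, were at 148 and 131 in TBI, with 8 of 8 higher. Astrocyte markers had a median of -0.42 with 4 of 6 lower, and interneuron markers of -0.12 with 5 of 6 lower. Oligodendrocyte markers had a median of 0.05 with 3 of 5 higher, and endothelial and pericyte markers of 0.22 with 5 of 7 higher. The part of these markers in this result was not tested.

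In TBI+MT against TBI at 24 h, 51 subunits were lower, as were 13018 of 17593 probes. The subunit median was -0.45, close to the -0.39 of all probes. None passed the test (0% of all probes), 0 had an unadjusted p under 0.05 (5.51% of all probes), 3 were more than 2-fold lower (13.8%), and 11 had both drug samples below both TBI samples (19.0%, against 28.6%). These shares were below those of all probes. The smallest p was that of Uqcrq, at 23.1 and 35.0 in TBI and 13.1 and 9.81 in TBI+MT, a difference of -1.32 with a standard error of 0.63 (limma, adjusted p = 0.907), and Ndufs8 was at 56.6 and 83.5 against 24.4 and 39.2. In both genes the groups did not overlap. Most subunits did not look like these. Atp5f1a was at 13.2 and 101 in TBI+MT and Atp5mc3 at 17.8 and 190, 1 below and 1 above the TBI samples. Without TBI+MT replicate 1 the median of the subunits was 0.29, and without replicate 2 it was -1.15. Endothelial and pericyte markers had a median of -0.83 with 7 of 7 lower, and oligodendrocyte markers of -0.55 with 4 of 5 lower. Microglia markers had a median of -0.27 with 7 of 8 lower, and astrocyte markers of -0.28 with 4 of 6 lower. Interneuron markers were at -0.06 with 4 of 6 lower. The part of these markers was not tested.

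In TBI+CB against TBI at 24 h, 37 subunits were higher and 21 lower, and 48.7% of all probes were higher. The subunit median was 0.30 against -0.04 over all probes. None passed the test (0% of all probes), 0 had an unadjusted p under 0.05 (8.22% of all probes), 10 were more than 2-fold higher (14.3%), and 5 had both drug samples above both TBI samples (8.62%, against 15.9%). Complex V had a median of 0.51, complex I of 0.37, complex IV of 0.19, complex II of 0.17 and complex III of -0.11. Atp5f1a was at 44.8 and 63.2 in TBI and 248 and 61.3 in TBI+CB, and Uqcrfs1 at 2.66 and 2.58 against 21.2 and 2.48, each with 1 sample far above. Cox4i1, at 0.437 and 0.628 in TBI, where it was near background on all arrays, was at 2.02 and 1.22 in TBI+CB, where 2 of 4 arrays were above background (limma, adjusted p = 0.604). The median was -0.44 without TBI+CB replicate 1 and 1.09 without replicate 2. Endothelial and pericyte markers had a median of -0.96 with 7 of 7 lower, and oligodendrocyte markers of -0.23 with 5 of 5 lower. Astrocyte markers had a median of 0.29 with 4 of 6 higher, and microglia markers of 0.10 with 5 of 8 higher. Interneuron markers were at 0.03 with 3 of 6 higher. The part of these markers was not tested.

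Between the drugs at 24 h, 53 subunits were lower in TBI+MT, as were 10934 of 17609 probes. The subunit median was -0.69 against -0.29 over all probes. None passed the test (0% of all probes), 1 had an unadjusted p under 0.05 (5.07% of all probes), 21 were more than 2-fold lower (22.4%), and for 2 both TBI+MT samples were below both TBI+CB samples (3.45%, against 10.3%). Ndufb10, the 1 with p under 0.05, was at 11.5 and 2.83 in TBI+CB and 0.715 and 3.29 in TBI+MT, a difference of -1.89 with a standard error of 0.82 (limma, adjusted p = 0.786), and the groups overlapped. The median was -1.57 without TBI+CB replicate 2 and 0.03 without TBI+MT replicate 1.

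Whether an effect differed between the times was tested as the 24 h difference minus the 4 h difference. No subunit passed in any of the 3 tests (0% of all probes in each), and in each only Cox6c-ps1 had an unadjusted p under 0.05. Cox6c-ps1 passed the filter only through TBI at 4 h, a group that enters all 3 tests. The filter thus favored a difference there, and no conclusion was drawn from this gene. The subunit median of the 24 h minus 4 h difference was -0.55 for the injury (all probes -0.29), 0.62 for metyrapone (all probes -0.01) and 1.00 for carbenoxolone (all probes 0.25).

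Over all 16 samples the subunits ranged very differently. Among the 39 always above background, the highest sample was between 2.06 and 38.0 times the lowest, with a median of 5.80, against 4.47 over 6173 such probes. The median was 10.6 in the 8 such genes of complex V, 5.74 in 19 of complex I, 4.57 in 6 of complex III, 4.70 in 3 of complex IV and 3.98 in 3 of complex II. Cyc1 was the steadiest, from 105 to 217 with a median of 164, followed by Uqcr11, from 149 to 357. Ndufa1 ranged most of the 39, from 4.70 to 179 with a median of 39.0. Beyond these 39, Cox7a2l ranged from 2.08 to 89.4 and Cox6c from 2.02 to 76.8. TBI+MT replicate 1 at 24 h held the lowest value of 42 subunits and TBI replicate 2 at 4 h the highest of 40.

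**Figure D4:**
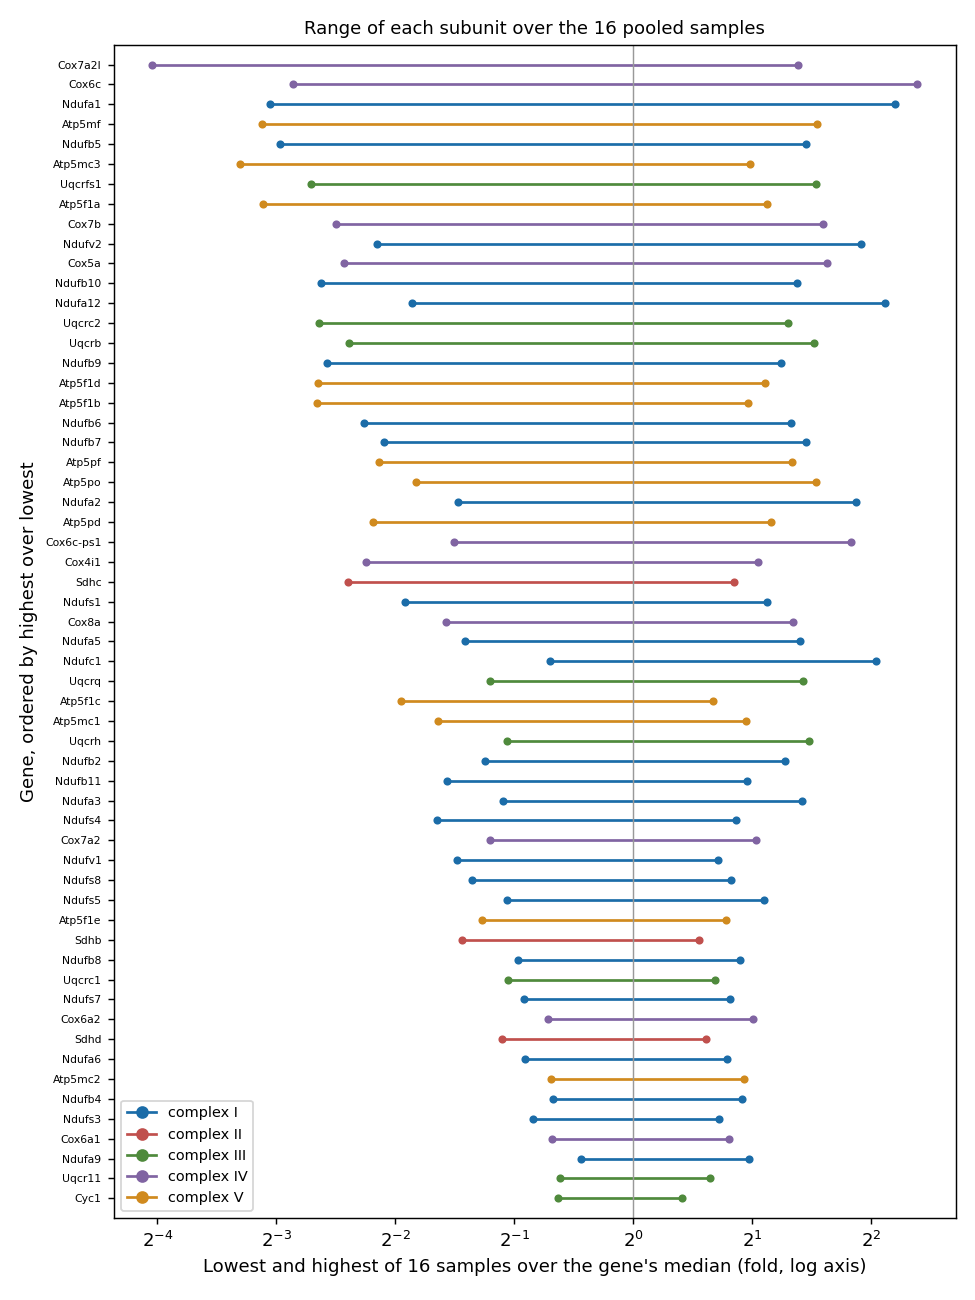
Lowest and highest of the 16 samples for each subunit, as a fold of the gene's median (log axis), colored by complex and ordered by the ratio of highest to lowest. Cyc1 spanned 2.06-fold and Cox7a2l 42.9-fold.

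A few genes ran against the others. Uqcrh was at 932 in TBI+MT replicate 1 at 24 h, its highest value, and its next highest was 525 in Sham replicate 2 at 24 h. Atp5f1e was at 586 and 463 in these samples, also its highest values. Ndufa9 was at 7.20 and 6.57 there, against a median of 3.67. These were the samples in which most other subunits were low, and in TBI+MT replicate 1 only 27.4% of all probes were above background.

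Lists of other mitochondrial genes and of glycolytic enzymes, which act in the cytosol, were set beside the subunits at 4 h, and none of their genes passed the test. For TBI+MT against TBI, all 12 kept complex I assembly factors were lower, with a median of -1.31, as were 20 of 22 assembly factors of complexes II to V, with -0.68. Ndufaf7, an assembly methyltransferase, had a difference of -2.25 and Ndufaf4, another assembly factor, of -1.78 (limma, adjusted p = 0.736 for both), and Cox14 and Surf1, factors for complex IV, of -1.11 and -1.34. Of 11 carriers, porins and cytochrome c genes 10 were lower, at a median of -1.16, with Etfb, an electron carrier, at -1.31 and Cycs, cytochrome c, at -1.90. Of 11 genes of the tricarboxylic acid cycle and pyruvate dehydrogenase 10 were lower, at -1.004, with the isocitrate dehydrogenase genes Idh3a at -1.20 and Idh3b at -1.03. Of 8 regulators of mitochondrial biogenesis 7 were lower, at -0.91, with Yy1 at -1.62 and Tfb1m at -0.88, and of 14 glycolytic enzymes 12, at -0.59, with Hk2 at -1.79 and Aldoc at -1.14.

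For TBI+CB against TBI the medians of these lists were -0.72 with 11 of 12 lower, -0.30 with 19 of 22, -0.93 with 11 of 11, -0.76 with 11 of 11, -0.83 with 7 of 8 and -0.54 with 13 of 14. For TBI against Sham they were 0.69 with 10 of 12 higher, 0.21 with 17 of 22, 0.64 with 11 of 11, 0.65 with 10 of 11, 0.59 with 8 of 8 and 0.67 with 11 of 14. The subunits, at -0.70 and 0.51, lay within the range of these lists in both comparisons. Markers of pyramidal neurons had medians of 0.21 after injury, -0.64 with metyrapone and -0.48 with carbenoxolone, with 4 genes measured.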

How the data were processed

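Laser-captured CA3 neuron RNA was amplified in 2 rounds and hybridized to 32 CodeLink rat arrays. The authors deposited raw spot intensity from CodeLink Expression Analysis 4.1.0.29054 and processed intensity values; whether background was subtracted is not given in the sources used here, although values below 0 occur. Here raw intensity was divided by each array's median, floored at 0.1 and log2 transformed. Masked and irregular spots were dropped. The filter kept 17635 of 33849 probes, those with signal above background throughout the 4 arrays of any group. Duplicate arrays were averaged, and 16 pooled samples of 8 groups were fitted with limma 3.58.1 (R 4.3.3), with Benjamini-Hochberg adjustment over all probes and a threshold of 0.05. The number of pooled samples, 2 a group, limits the precision.

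Genes were named from the platform table (16906 probes with 1 gene, 182 with several). 6 probes assigned to several genes (among them Cox5b, Cox4i2 and Ndufs6) were left out. For genes with several probes, the brightest was used. The named genes were the core and catalytic subunits, the c ring genes, tissue isoforms and, per comparison and complex, the 3 with the smallest p, of which the text takes a selection; others were named after their values were seen. The members, gene lists and rules were chosen with earlier results of these data known. Promoters are from RefSeq (GRCr8). The fitting was tested on simulated data.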

Additional observations from a re-analysis of the deposited data

How the results depend on the processing

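No subunit passed the threshold under any setting. At 4 h the median over the subunits kept its sign under all settings in every comparison, but medians of single complexes did not: complex II turned to -0.088 for TBI against Sham and to 0.10 for TBI+CB against TBI under quantile normalization, and also turned in both when the median of all probes was subtracted (-0.078 and 0.082). Between the drugs, the medians of complexes II, III and V also turned under some settings. For TBI against Sham it lay between 0.11 (quantile normalization) and 0.65 and was 0.22 within the first slide run. For TBI+MT against TBI it lay between -1.40 and -0.45 (quantile normalization) and was -1.24 within the second run, and for TBI+CB against TBI between -0.91 and -0.30. At 24 h the sign rested on single samples. Leaving out 1 pooled sample at a time, the median ranged from -0.58 to 0.40 for TBI against Sham, from -1.15 to 0.29 for TBI+MT against TBI, from -0.44 to 1.09 for TBI+CB against TBI and from -1.57 to 0.025 between the drugs. With both dim samples (TBI+CB replicate 2 and TBI+MT replicate 1) left out, an alternative chosen after seeing the data, it was 0.29 for TBI+MT and 1.09 for TBI+CB against TBI. With the filter of the study on replicate variation it was -0.16 for TBI+CB against TBI and 0.04 for TBI against Sham. Single genes turned sign as follows, and the cause was not tested. Sdhc was at -0.064 for TBI against Sham at 4 h under quantile normalization. For TBI against Sham at 24 h, Atp5f1d was at 0.81 on array a alone. With 1 sample left out, Atp5f1d ranged from -2.01 to 0.38 and Sdhb from -0.067 to 0.61 (it was -0.026 without TBI replicate 2). For TBI+CB against TBI at 24 h, Uqcrfs1 ranged from -0.082 to 3.01 and Sdhc from -0.37 to 1.34, both lowest without TBI+CB replicate 1. Samples share only a replicate number, and same-numbered samples did not deviate together in all comparisons (correlations -0.35 to 0.29); with the replicate block the counts stayed at 0 and the medians were the same, such as -1.005 for TBI+MT against TBI at 4 h.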
